A study of Mus musculus with 6 samples.

Results

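The matrix metalloproteinases (MMPs) are zinc-dependent proteases that cut the proteins of the extracellular matrix. Transcripts of 10 of their genes, Mmp2, Mmp3, Mmp8, Mmp9, Mmp11, Mmp12, Mmp13, Mmp14, Mmp16 and Mmp19, were followed here in mouse Achilles tendon tissue. They were chosen by name from the 21878 genes of the count table, which holds 23 MMP genes in all, and all 10 were present. Total RNA depleted of ribosomal RNA had been sequenced from 3 libraries labelled sham and 3 labelled Achilles tendon amputation (titled HO, called cut here), numbered as in their titles. The study concerned heterotopic ossification, in which bone forms in soft tissue, here after trauma. Neither the strain, sex and age of the mice nor the time after surgery is given in the sources used here. Nothing says that each library came from a separate animal, and the p-values then speak only of the spread among these libraries, which may be technical.

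Collagenases such as MMP13 and MMP8 make the first cut in the triple helix of fibrillar collagen, the load-bearing protein of tendon, and the gelatinases MMP2 and MMP9 degrade the unwound chains. Most MMPs are made as inactive proenzymes, and the membrane-anchored MMP14 activates proMMP2 at the cell surface in a complex with the inhibitor TIMP2. The same enzymes take part in the replacement of cartilage by bone, where MMP13 is a product of hypertrophic chondrocytes and osteoblasts and MMP9 of osteoclasts.

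Libraries held 23916839 to 27140226 counts in the sham group and 28410231 to 31346730 in the cut group. A list of 30 skeletal muscle genes took 19.5% to 21.5% of the sham counts, but 1.64%, 0.517% and 15.6% of cut 1, 2 and 3, so cut 3 stood near the sham libraries in this respect. Tendon markers were present in every library. Tnmd (tenomodulin, a membrane protein of mature tendon cells) stood at 78.2, 69.5 and 44.5 CPM (read counts scaled to a common library size with TMM factors) in sham 1 to 3 and 586, 1014 and 456 CPM in cut 1 to 3, and Scx (scleraxis, the tendon transcription factor) at 8.09 to 16.3 and 22.6 to 67.9 CPM. In bulk tissue, a change in the number of cells of a type and a change in RNA per cell cannot be told apart. Among 14561 genes tested (edgeR, quasi-likelihood, p adjusted by Benjamini-Hochberg over all of them), 2968 were called higher in cut (20.4%) and 1789 lower (12.3%) at an adjusted p under 0.05. The number called higher was 1566, 1091 and 1359 without sham 1, 2 and 3, and 1585, 1863 and 4212 without cut 1, 2 and 3. The number called lower was 670, 436 and 798, and 688, 893 and 4392, in the same order. Of the 8 tendon markers, 4 (Tnmd, Scx, Thbs4 and Col1a1) were called higher and 0 lower, beside 20.4% and 12.3% of all tested genes. Thbs4 (adjusted p = 0.0485) and Col1a1 (0.04998) passed the threshold only narrowly. Mkx, Fmod, Comp and Egr1 were not called, and their groups overlapped.

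Of the 10 genes, 9 passed the filter on low counts, which asked for about 0.36 CPM in at least 3 libraries, and Mmp8 did not. Mmp12 passed only through the cut libraries, since 2 of the 3 sham libraries reached that level. All 9 tested genes were called higher in cut, beside 20.4% of all tested genes. Fold changes ran from 3.15 for Mmp11 to 834 for Mmp13. The 9 tested genes had a median log2 fold change of 3.58, beside -0.02 over all tested genes. In each of the 9 every cut library lay above every sham library, which was so for 28.7% of all tested genes, and 0 had every cut library below every sham library (26.1% of all tested genes). Only Mmp12 passed the filter through the group where it was high, and the other 8 reached its level in all 3 sham libraries. The 10 genes were chosen with earlier results of these data known, so these counts are descriptions. Among the 6 other MMP genes tested, 1 was called higher and 1 lower, beside 20.4% and 12.3% of all tested genes. Of the 9, 7 (Mmp2, Mmp3, Mmp11, Mmp12, Mmp13, Mmp14 and Mmp19) were called in each of the 17 alternative analyses, and Mmp9 and Mmp16 were not.

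**Figure D1:**
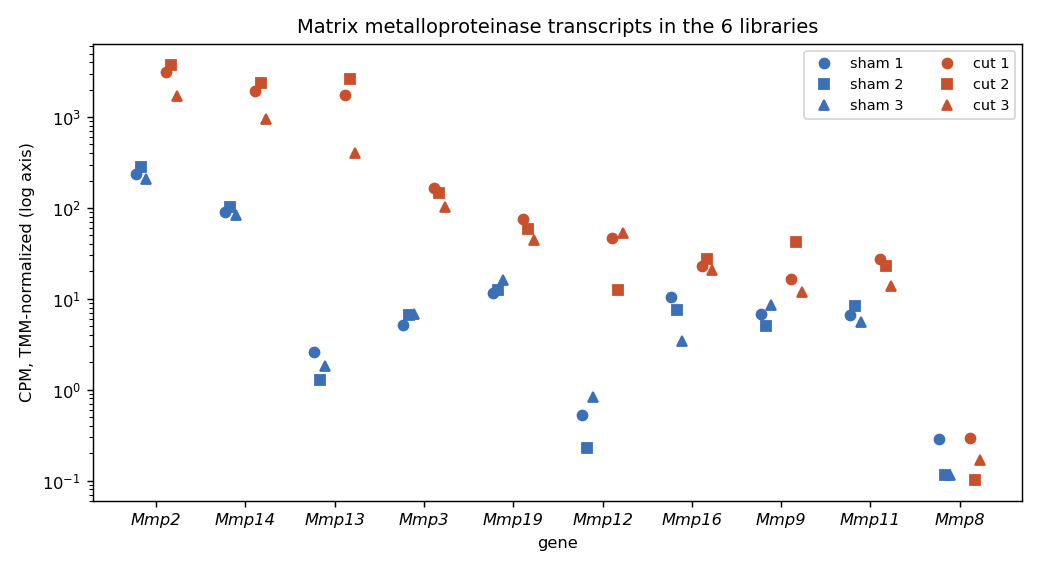
CPM (log axis) of the 10 metalloproteinase genes, ordered by their mean in cut, with 1 symbol per library: blue sham, red cut, and circles, squares and triangles for replicates 1, 2 and 3. The red symbols of 9 genes lie above the blue ones, from Mmp2 at 1725 to 3765 CPM in cut, while those of Mmp8 overlap between 0.101 and 0.29 CPM.

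The DNA just before the gene starts is shown so that the motifs of genes with large and small fold changes can be read side by side. RefSeq windows on GRCm38.p6 were at hand for 6 of the 10 genes, and Mmp2, Mmp9, Mmp16 and Mmp19 were not matched. Each sequence is the 150 bases before an annotated start, written 5′ to 3′ on the gene's strand. Capitals mark every match on either strand to TGANTCA (the AP-1 motif, bound by Fos and Jun proteins), TATAAA (the TATA box), TGTGGT (the RUNX core), AGGAAG (an ETS-family motif) or GGGCGG (the GC box of SP factors).
Mmp13: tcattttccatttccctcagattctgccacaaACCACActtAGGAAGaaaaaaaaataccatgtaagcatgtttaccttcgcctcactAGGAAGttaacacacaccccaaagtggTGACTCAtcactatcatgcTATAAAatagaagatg
Mmp3: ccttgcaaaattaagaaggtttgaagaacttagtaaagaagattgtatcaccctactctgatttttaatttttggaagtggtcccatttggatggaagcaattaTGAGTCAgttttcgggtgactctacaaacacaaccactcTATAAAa
Mmp12, inner start: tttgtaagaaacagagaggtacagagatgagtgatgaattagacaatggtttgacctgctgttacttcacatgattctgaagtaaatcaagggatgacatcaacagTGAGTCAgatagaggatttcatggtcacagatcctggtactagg
Mmp8: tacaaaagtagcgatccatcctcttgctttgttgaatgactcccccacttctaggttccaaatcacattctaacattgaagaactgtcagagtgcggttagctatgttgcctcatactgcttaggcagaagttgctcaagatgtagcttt
Mmp14: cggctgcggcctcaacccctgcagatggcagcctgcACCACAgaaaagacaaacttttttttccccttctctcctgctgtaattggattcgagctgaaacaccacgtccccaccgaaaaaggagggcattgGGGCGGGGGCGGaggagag
Mmp11: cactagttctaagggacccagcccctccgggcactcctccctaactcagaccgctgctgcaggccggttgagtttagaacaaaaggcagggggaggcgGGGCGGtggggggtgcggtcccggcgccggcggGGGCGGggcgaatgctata
The windows are chr9:7272364-7272513 for Mmp13, chr9:7445672-7445821 for Mmp3, chr9:7347224-7347373 for the inner start of Mmp12, chr9:7558279-7558428 for Mmp8 and chr14:54431448-54431597 for Mmp14, all on the plus strand, and chr10:75932503-75932652 on the minus strand for Mmp11. Mmp12 has another annotated start upstream, whose window overlaps its own exon and is not shown. That window holds an ETS motif and no AP-1 motif.

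The AP-1 motif was found in the windows of Mmp13, Mmp3 and the inner start of Mmp12, beginning 35, 46 and 44 bases before the start. It occurs in 4.24% of the 32851 windows of this length in the RefSeq table. These were also the 3 genes with the highest fold changes among the 10, of which 6 had a window, and for Mmp12 the motif stands at only 1 of its 2 starts. Mmp13 and Mmp3 each held a TATA box as well, 16 and 7 bases before the start, a motif present in 7.57% of all windows. Mmp13 further held a RUNX core (8.4% of all windows) at 118 bases and a pair of ETS motifs (19.7%) at 109 and 62 bases. Mmp14 held a RUNX core at 114 bases and GC boxes (28.6%) at 19 and 13 bases, directly next to each other, and Mmp11 held GC boxes at 52 and 19 bases. The Mmp8 window held none of the 5 motifs. A match of letters is a description of the sequence and not a site shown to be bound.

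Of the collagenase genes Mmp13 and Mmp8, the first had the largest fold change of the tested MMP genes and the second was too scarce to be tested. Mmp13 (NCBI gene 17386, chromosome 9, 7272514 to 7283333 in GRCm38.p6), collagenase 3, which prefers the type II collagen of cartilage, stood at 2.57, 1.29 and 1.83 CPM in sham 1 to 3 and 1748, 2605 and 402.5 CPM in cut 1 to 3. Sham thus had traces and every cut library was high, with cut 3 the lowest of the 3. The counts behind these values were 34 to 63 in sham and 11996 to 77189 in cut. The log2 fold change was 9.70 ± 0.95 (SE, n = 3 per group; adjusted p = 0.0034 by the edgeR fit above), and 8.08 on the log2(FPKM + 1) scale.

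Mmp8 (NCBI gene 17394, chromosome 9, 7558429 to 7568486), the neutrophil collagenase, had 7, 3 and 3 counts in the sham libraries and 9, 3 and 5 in the cut libraries, or 0.101 to 0.29 CPM. The groups overlapped throughout. Without a filter on low counts its log2 fold change was 0.11 ± 0.68 (adjusted p = 0.914), so at this depth no difference was detectable. Markers of neutrophils, the cells that store MMP8, were mostly scarce. Their 12-gene list summed to 5.57 to 9.64 CPM in sham and 8.57 to 15.4 CPM in cut, with 6 of the 12 (Ly6g, Elane, Camp, Cxcr2, Retnlg and Stfa2l1) at 0 in at least 1 library. Of the 5 tested, 1 was called higher and 0 lower, beside 20.4% and 12.3% of all tested genes. It was Csf3r, the receptor of granulocyte colony-stimulating factor, at 2.04 to 3.86 CPM in sham and 6.01 to 10.3 CPM in cut (log2 1.64 ± 0.33, adjusted p = 0.0149). Most of the list's sum in each cut library was Csf3r. Ltf was not called (log2 -1.88 ± 0.60, adjusted p = 0.0535), but every cut library (0.134 to 0.419 CPM) lay below every sham library (0.573 to 1.68 CPM). S100a8, S100a9 and Cxcr2 were not called, and their groups overlapped.

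Both gelatinase genes were higher, Mmp2 at high abundance and Mmp9 at low. Mmp2 (NCBI gene 17390, chromosome 8, 92827290 to 92853421), gelatinase A of fibroblasts, stood at 235, 279 and 206 CPM in sham 1 to 3 and 3106, 3765 and 1725 CPM in cut 1 to 3. The lowest cut library exceeded the highest sham library several times over. This was a log2 difference of 3.58 ± 0.42, an 11.9-fold change (adjusted p = 0.0044). The 8 fibroblast markers summed to 3643, 3814 and 2264 CPM in sham 1 to 3 and 8652, 10552 and 5698 CPM in cut 1 to 3, with the same order of cut libraries as Mmp2. Of these, 5 were called higher and 0 lower, beside 20.4% and 12.3% of all tested genes. The 7 endothelial markers summed to 909 to 1077 CPM in sham and 463 to 741 CPM in cut, with 0 called higher and 3 lower, beside the same 20.4% and 12.3%. In all 7 every cut library lay below every sham library, which was so for 26.1% of all tested genes. The part of these cells in the Mmp2 result was not tested.

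Mmp9 (NCBI gene 17395, chromosome 2, 164940326 to 164955850), gelatinase B of osteoclasts and other myeloid cells, stood at 6.74, 5.07 and 8.48 CPM in sham and 16.3, 42.4 and 11.9 CPM in cut. Cut 2 was far above the others, and cut 3 lay close to the highest sham library. Mmp9 had a log2 fold change of 1.80 ± 0.50 (adjusted p = 0.0371), which was 1.07 without cut 2 (adjusted p = 0.0475). The call was lost without sham 1 (adjusted p = 0.105), sham 2 (0.125), sham 3 (0.0858) or cut 1 (0.062). A fit blocked on the replicate number lost it too (log2 1.59, adjusted p = 0.0793). The 10-gene osteoclast list, which shares no gene with the 10, summed to 216 to 222 CPM in sham and 860, 999 and 570 CPM in cut 1 to 3, with cut 2 highest and cut 3 lowest as for Mmp9. Of its 8 tested genes, 5 were called higher and 0 lower, beside 20.4% and 12.3% of all tested genes, and in cut most of the sum was Ctsk, the collagen-degrading cathepsin K. The calcitonin receptor Calcr, a defining osteoclast gene, stood at 0 in cut 1 and 2, and Ocstamp at 0 in sham 2. The part of these cells in the Mmp9 result was not tested.

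The stromelysin genes Mmp3 and Mmp11 differed in the size of their increase. Mmp3 (NCBI gene 17392, chromosome 9, 7445822 to 7455975), stromelysin 1, which cuts proteoglycans and can activate other proMMPs, stood at 5.19, 6.66 and 6.76 CPM in sham and 167, 146 and 103 CPM in cut. Both groups were tight, and their ranges were far apart. Mmp3 had a log2 fold change of 4.48 ± 0.24 (adjusted p = 0.00238), the smallest p of the 10 genes.

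Mmp11 (NCBI gene 17385, chromosome 10, 75923221 to 75932502), stromelysin 3, known from stromal fibroblasts around tumours and activated by furin inside the cell, stood at 6.58, 8.25 and 5.5 CPM in sham and 27.5, 22.7 and 13.9 CPM in cut. Cut 3 was again the lowest of its group but above all sham libraries. On the log2 scale the difference was 1.66 ± 0.29 (adjusted p = 0.0102). Its exons overlap those of Chchd10 on the other strand, so its counts are uncertain to that extent because the strand setting of the counting is not given in the sources used here.

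Mmp12 (NCBI gene 17381, chromosome 9, 7344397 to 7360461), the elastase of macrophages, stood at 0.531, 0.227 and 0.84 CPM in sham and 46.5, 12.6 and 52.7 CPM in cut. It was the only 1 of the 9 tested genes in which cut 2, not cut 3, was the lowest cut library. Mmp12 had a log2 fold change of 6.12 ± 0.74 (adjusted p = 0.00454). On the log2(FPKM + 1) scale it was 3.07, since the added 1 is far above the sham level. The 12 macrophage markers summed to 304 to 410 CPM in sham and 992, 683 and 965 CPM in cut 1 to 3, with none at 0. Of these, 11 of 12 were called higher and 0 lower (20.4% and 12.3% of all tested genes). Cd163 was not called (log2 -1.26 ± 0.50, adjusted p = 0.0947), with 35.9 to 56.5 CPM in sham and 7.26 to 29.1 CPM in cut. Cut 2 was the lowest cut library in the sum as well. Singly, C1qa, C1qc and Cd14 were lowest in cut 1, Trem2 in cut 3 and the others in cut 2. The macrophage part of the Mmp12 result was not tested. Exons of Mmp12 and Mmp1b overlap on opposite strands, but Mmp1b had 3 counts in cut 2 and 0 in the other libraries.

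The 2 membrane-type genes in the set, Mmp14 and Mmp16, both had higher values in cut. Mmp14 (NCBI gene 17387, chromosome 14, 54431598 to 54442456), MT1-MMP, the activator of proMMP2 and itself a collagenase of the cell surface, stood at 89.4, 103 and 84.1 CPM in sham and 1934, 2368 and 954 CPM in cut. The groups were apart, by a log2 fold change of 4.25 ± 0.43, a 19.0-fold change (adjusted p = 0.00348). It had the same order of cut libraries as Mmp2, with cut 2 highest and cut 3 lowest.

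Mmp16 (NCBI gene 17389, chromosome 4, 17853072 to 18117479), MT3-MMP, stood at 10.4, 7.61 and 3.47 CPM in sham and 22.9, 27.2 and 20.6 CPM in cut. Its cut libraries were close together, and sham 3 was the low sample. Mmp16 had a log2 fold change of 1.72 ± 0.38 (adjusted p = 0.0188), and the call was lost without sham 2 (1.74, adjusted p = 0.0735), cut 1 (1.74, 0.0556) or cut 2 (1.61, 0.0507). On the log2(FPKM + 1) scale it was 0.97.

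Mmp19 (NCBI gene 58223, chromosome 10, 128790910 to 128800827), a secreted MMP of basement membrane and other matrix substrates, stood at 11.48, 12.6 and 16.1 CPM in sham and 75.7, 58.6 and 44.2 CPM in cut. The groups were apart, with cut 1 the highest. The log2 fold change was 2.15 ± 0.24 (adjusted p = 0.00403). Its exons overlap those of Tmem198b and Gm47093 on the other strand.

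The cut libraries differed among themselves in a way most of the genes shared. Of the 9 genes called higher, 8 were lowest in cut 3, the library with 15.6% of counts from the muscle list, and 5 were highest in cut 2, with 0.517%. Against the sham mean, Mmp13 stood at log2 9.85, 10.42 and 7.73 in cut 1 to 3, Mmp14 at 4.39, 4.68 and 3.37, and Mmp2 at 3.69, 3.97 and 2.85. Mmp3 varied less, at 4.75, 4.56 and 4.05. With the summed level of the muscle list added to the model (the muscle covariate) the log2 fold changes were smaller for Mmp13 (7.60), Mmp14 (3.30), Mmp2 (2.78) and Mmp11 (1.07), and larger for Mmp12 (7.0), each still called. Under that covariate Mmp9 (0.57, adjusted p = 0.354) and Mmp16 (1.45, adjusted p = 0.0567) were not called. Without cut 3, by contrast, the log2 fold changes were 10.17 for Mmp13, 4.54 for Mmp14, 3.84 for Mmp2 and 2.12 for Mmp9, all called.

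**Figure D2:**
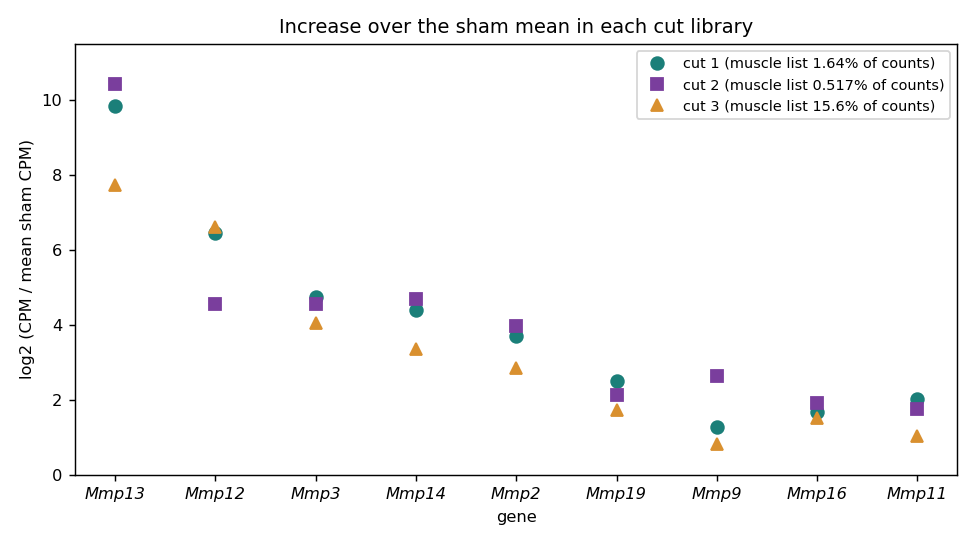
Log2 of CPM over the mean sham CPM for the 9 genes called higher, in order of their fold change, with 1 symbol for each cut library and no error bars. The triangle of cut 3 is the lowest in 8 genes, and for Mmp12 the square of cut 2 is the lowest, at 4.56.

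Levels of different genes were compared in FPKM, the deposited values scaled by gene length and library size. In sham, Mmp2 led at 75.0 ± 12.8 FPKM (SD, n = 3), followed by Mmp14 at 24.3 ± 3.04, and their ranges did not meet each other or those of the other genes. Mmp19 (3.86 ± 0.569), Mmp3 (3.43 ± 0.424), Mmp11 (2.89 ± 0.644) and Mmp9 (1.98 ± 0.452) followed, and the ranges of neighbours in this order overlapped. Mmp13 (0.71 ± 0.253) and Mmp16 (0.699 ± 0.354) overlapped, as did Mmp12 (0.14 ± 0.0771) and Mmp8 (0.0704 ± 0.0424) at the lower end. The collagenase gene Mmp13 thus ranked 7 of 10 in sham.

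In cut, Mmp13 ranked 2. Mmp2 stood at 901 ± 339 FPKM, Mmp13 at 599 ± 410 and Mmp14 at 465 ± 197, with ranges that overlapped between neighbours, so the order of these 3 is not fixed by 3 libraries. Mmp3 followed at 77.9 ± 23.5, clear of its neighbours on both sides. The ranges of neighbours overlapped again from Mmp19 (17.5 ± 5.96) through Mmp12 (9.98 ± 5.87) and Mmp11 (9.26 ± 3.59) to Mmp9 (6.87 ± 4.57). Mmp16 (2.29 ± 0.345) and Mmp8 (0.078 ± 0.0461) stood below them, each apart from its neighbours.

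The sum over the 10 genes was 113, 129 and 97.5 FPKM in sham 1 to 3 and 2487, 2796 and 984 FPKM in cut 1 to 3. Mmp2 and Mmp14 together made up 85.6% to 89.3% of the sum in sham and 62.0% to 76.2% in cut. Mmp13 made up 0.376% to 0.874% in sham and 28.7%, 33.6% and 14.5% in cut 1 to 3. The ratio of Mmp14 to Mmp2 was 0.312 to 0.344 in sham and 0.466 to 0.53 in cut. The 10 genes took 0.0322% to 0.0428% of all counts in sham and 0.78%, 0.873% and 0.316% in cut 1 to 3.

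**Figure D3:**
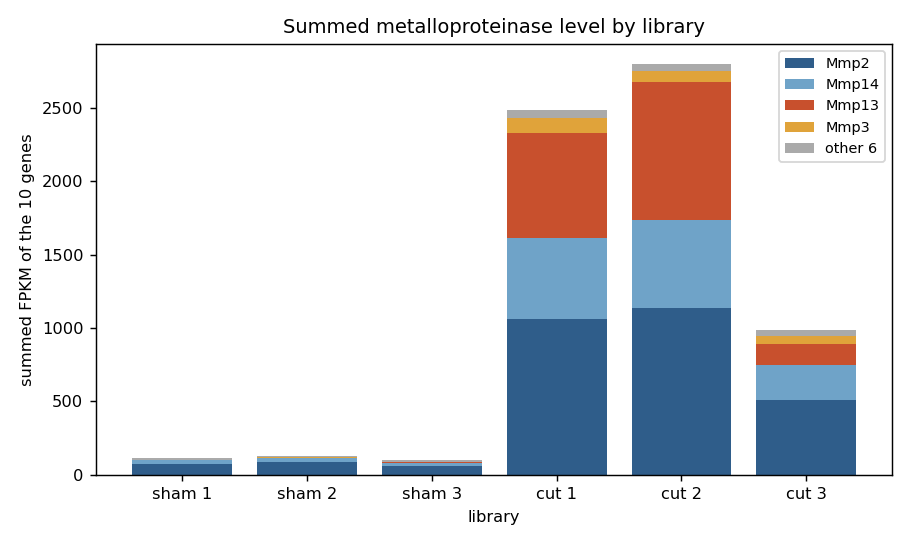
Stacked bars of FPKM for Mmp2, Mmp14, Mmp13, Mmp3 and the other 6 genes together, with 1 bar per library and no error bars. The sham bars reach 97.5 to 129 FPKM and are nearly all Mmp2 and Mmp14, and the cut bars reach 984 to 2796 FPKM with a visible Mmp13 segment.

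The genes Mmp13, Mmp12, Mmp3 and Mmp8 lie in 1 cluster on chromosome 9, which holds 10 MMP genes over 427 kb and no other protein-coding gene in the annotation used. High values in cut were not shared by the whole cluster. From Mmp13, the first gene of the cluster, the starts of Mmp12 and Mmp3 lie 71.9 and 173 kb away. Between and beyond them, Mmp1b and Mmp1a, the rodent relatives of interstitial collagenase, had at most 3 counts in any library, and Mmp20 (the enamel MMP) had 0 in all 6. Mmp7, matrilysin, at the far end, had 1 count in cut 3 and 0 elsewhere. Mmp10, stromelysin 2 and next to Mmp1a, had 0, 1 and 2 counts in the sham libraries and 39, 57 and 8 in the cut libraries. It did not pass the filter, and without it Mmp10 had a log2 fold change of 4.71 ± 1.03 (adjusted p = 0.0194 in edgeR), a size that depends on the prior count. Mmp10 was not called without sham 1 (4.23, adjusted p = 0.0636), sham 2 (4.70, 0.0775) or sham 3 (5.55, 0.0576). Mmp27, beside Mmp8, stood at 15 to 30 counts in sham and 22 to 74 in cut and was not called (log2 0.97 ± 0.50, adjusted p = 0.17).

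**Figure D4:**
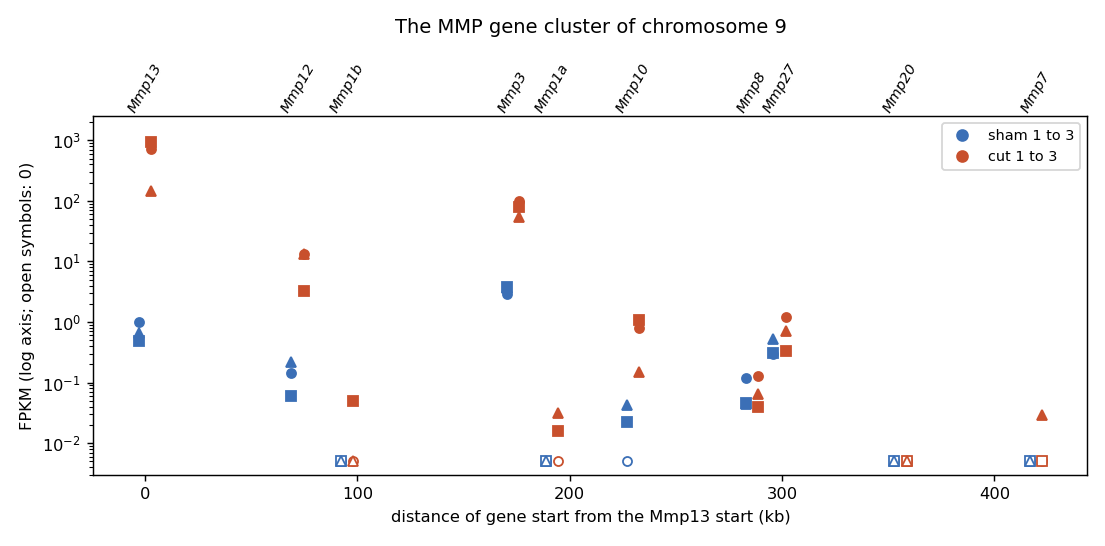
FPKM (log axis) of the 10 MMP genes of the chromosome 9 cluster against the distance of each gene's start from that of Mmp13 in kb, with 1 symbol per library (blue sham, red cut; circle, square and triangle for replicates 1, 2 and 3; open symbols are values of 0, drawn at the bottom, and groups are shifted sideways for clarity). Mmp13, Mmp12, Mmp3 and Mmp10 have red symbols above all blue ones, and Mmp8 and Mmp27 overlap.

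Of the 13 other MMP genes 6 were tested, of which 1 was called higher, 1 lower and 4 not called, beside 20.4% and 12.3% of all tested genes. Mmp23, a short MMP anchored in the membrane by its N-terminal end, stood at 10.01, 9.20 and 7.98 CPM in sham and 49.0, 76.9 and 31.8 CPM in cut (log2 2.53 ± 0.33, adjusted p = 0.00538), and its log2 fold change was 1.68 with the muscle covariate, still called. Mmp28, epilysin, a secreted MMP of epithelia and other tissues, was the 1 gene of the family called lower. It stood at 28.1, 25.7 and 22.0 CPM in sham and 11.7, 9.92 and 11.51 CPM in cut (log2 -1.19 ± 0.14, adjusted p = 0.00454).

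The membrane-type gene Mmp15 stood at 36.4, 38.0 and 36.7 CPM in sham and 16.0, 11.9 and 32.7 CPM in cut and was not called (log2 -0.87 ± 0.36, adjusted p = 0.103), although every cut library lay below every sham library. It was called lower without cut 3 (-1.41, adjusted p = 0.000189), and stood at -0.09 with the muscle covariate. The glycosylphosphatidylinositol-anchored Mmp17 (log2 0.14 ± 0.25, adjusted p = 0.69) and Mmp25 (1.14 ± 0.47, 0.101) were not called either, though Mmp25 was without cut 2 (1.49, adjusted p = 0.0345). The 5 tested membrane-type genes (Mmp14, Mmp15, Mmp16, Mmp17 and Mmp25) thus had log2 values from -0.87 to 4.25. Mmp21 and Mmp24 had at most 22 counts in any library and were not tested.

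**Figure D5:**
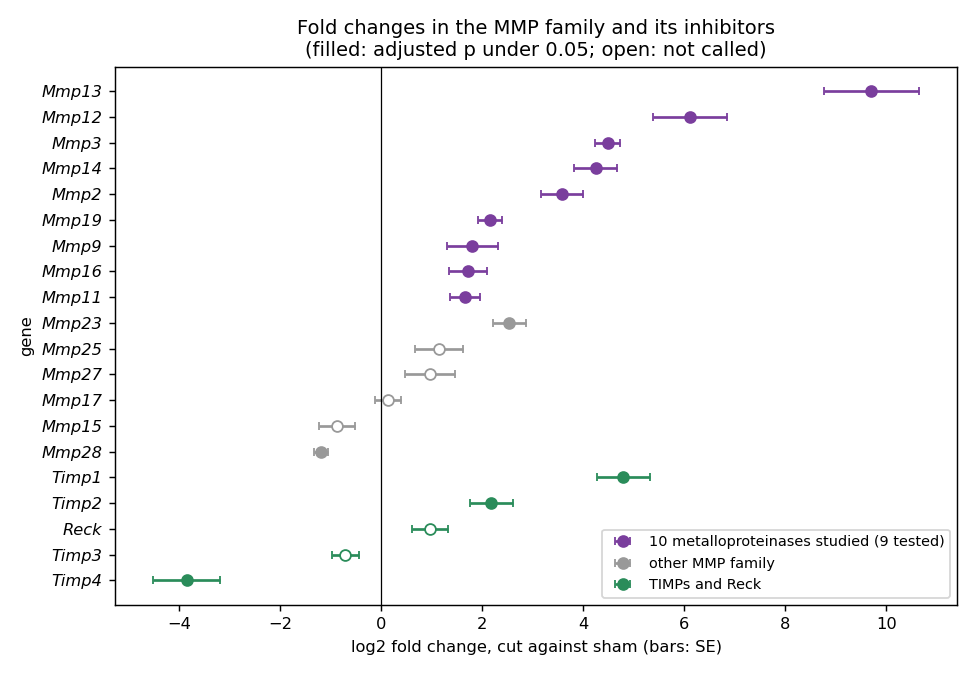
Log2 fold change of cut against sham with its SE (n = 3 per group) for the tested MMP genes and their inhibitors, in 3 colours for the metalloproteinases described here, the other MMP genes and the inhibitors. Filled symbols passed an adjusted p under 0.05 and open symbols did not. The values span 9.70 for Mmp13 to -1.19 for Mmp28 in the MMP family, and 4.79 for Timp1 to -3.86 for Timp4 among the inhibitors.

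Among the inhibitors, 2 of 5 were called higher, 1 lower and 2 not called, beside 20.4% and 12.3% of all tested genes. The tissue inhibitors of metalloproteinases (TIMPs) bind the active site of MMPs, and Reck is a membrane-anchored inhibitor. Timp1, the inducible form, stood at 3.23, 3.41 and 2.94 CPM in sham and 83.0, 145 and 38.2 CPM in cut (log2 4.79 ± 0.52, adjusted p = 0.00387). With the muscle covariate the log2 fold changes were 3.41 for Timp1, 1.32 for Timp2 and -2.94 for Timp4, each still called. Timp2, the partner of MMP14 in proMMP2 activation, stood at 663, 688 and 467 CPM in sham and 2850, 3775 and 1616 CPM in cut (log2 2.18 ± 0.43, adjusted p = 0.0136). Its call was lost without sham 1 (2.25, adjusted p = 0.0566), sham 2 (2.26, 0.0636) or sham 3 (1.99, 0.0601).

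Timp4 went the other way, with 53.5, 89.7 and 96.6 CPM in sham and 7.28, 1.35 and 7.89 CPM in cut (log2 -3.86 ± 0.66, adjusted p = 0.00947). Timp3, which binds to the matrix, stood at 934, 791 and 585 CPM in sham and 474, 552 and 382 CPM in cut and was not called (log2 -0.71 ± 0.27, adjusted p = 0.0865), though it was called lower by DESeq2 (-0.71, adjusted p = 0.0208) and with the muscle covariate (-1.07, adjusted p = 0.0346). Reck stood at 55.4, 57.2 and 31.8 CPM in sham and 102, 126 and 55.5 CPM in cut (0.97 ± 0.36, adjusted p = 0.078). Reck was called in the blocked fit (0.94, adjusted p = 0.0132), without cut 3 (1.24, 0.00315) and by DESeq2 (0.98, 0.0329), and stood at 0.12 with the muscle covariate. The summed level of the 4 TIMP genes was 298 to 425 FPKM in sham and 1076, 1277 and 547 FPKM in cut 1 to 3. The 10 metalloproteinases summed to 0.265 to 0.327 times that of the TIMPs in sham and 2.31, 2.19 and 1.80 times in cut 1 to 3, a ratio of RNA levels and not of active protein.

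Of the 7 tested activator genes, 5 were called higher and 1 lower (Plaur, Plat, Furin, Pcsk5 and Cma1 against Pcsk6), beside 20.4% and 12.3% of all tested genes. Plat, tissue plasminogen activator, stood at 24.4, 23.5 and 20.3 CPM in sham and 50.9, 49.2 and 34.6 CPM in cut (log2 0.98 ± 0.18, adjusted p = 0.0112). The proprotein convertase gene Pcsk5 had a log2 fold change of 1.75 ± 0.32 (adjusted p = 0.0114), and its relative Pcsk6 of -0.62 ± 0.16 (adjusted p = 0.0323). Plg, the plasminogen gene itself, had too few counts to be tested. The 6 calls became 2 without sham 1, 0 without sham 2, 3 without cut 1 and 3 with the muscle covariate, under which Pcsk5 stood at 0.95 (adjusted p = 0.0207). Over all tested genes, the 2968 called higher became 1566, 1091, 1585 and 1540 in these settings. The 1789 called lower became 670, 436, 688 and 715. Without sham 2, Plat (0.98, adjusted p = 0.0524) and Pcsk5 (1.78, 0.0521) were not called. Pcsk6 was not called without sham 1, sham 2, cut 1 or cut 2, with the muscle covariate or on the FPKM scales.

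Of 19 tested genes for inducers and transcription factors of MMP genes, 5 were called higher (Il1b, Il6, Tgfb1, Fosl2 and Runx2), 1 lower (Cebpb) and 13 not called, the first near the 20.4% and the second below the 12.3% of all tested genes. The cytokine gene Il1b, an inducer of MMP3 and MMP13 in connective tissue cells, stood at 0.49, 0.227 and 0.496 CPM in sham and 6.45, 4.56 and 3.42 CPM in cut (log2 3.56 ± 0.40, adjusted p = 0.00407). Il6 was scarcer, at 0.0409 to 0.114 CPM in sham and 0.705 to 1.22 CPM in cut (3.52 ± 0.48, adjusted p = 0.00577). Both values depend on the scale, at 1.28 for Il1b and 0.77 for Il6 on log2(FPKM + 1). The transcription factor Cebpb had a log2 fold change of -1.02 ± 0.24 (adjusted p = 0.0215). Of the 7 AP-1 genes tested, only Fosl2 was called (0.93 ± 0.28, adjusted p = 0.0435), beside the same 20.4% and 12.3%. Fos, Fosb, Fosl1, Jun, Junb and Jund were not called, with Junb at 0.93 ± 0.51 (adjusted p = 0.192). A link between these genes and the motifs above was not tested. The 6 calls became 3 without sham 2, sham 3 or cut 1. Over all tested genes, the 2968 called higher became 1091, 1359 and 1585 in these settings. The 1789 called lower became 436, 798 and 688. Cebpb was not called without sham 2, sham 3, cut 1 or cut 2 or with the muscle covariate (-0.63).

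Of 11 substrate genes, 8 were called higher, 0 lower and 3 (Col4a1, Eln and Dcn) not called, beside 20.4% and 12.3% of all tested genes. Among the 8, Col1a1 passed only narrowly (adjusted p = 0.04998). Col2a1, type II collagen and the preferred fibrillar substrate of MMP13, stood at 17.4, 6.51 and 5.04 CPM in sham and 5597, 5598 and 862 CPM in cut (log2 8.70 ± 1.13, adjusted p = 0.00533). Acan, the cartilage proteoglycan aggrecan, stood at 27.0, 17.1 and 8.86 CPM in sham and 1921, 3100 and 916 CPM in cut (6.81 ± 0.74, adjusted p = 0.00387). With the muscle covariate the log2 fold changes were 6.45 for Col2a1 and 5.54 for Acan, and without sham 1 that of Col2a1 was 9.44, all called. The 8 calls became 3 without sham 1, 2 or 3, 4 without cut 1 and 5 without cut 2. Over all tested genes, the 2968 called higher became 1566, 1091, 1359, 1585 and 1863 in these settings. The 9-gene chondrocyte list, which holds both genes, summed to 83.5 to 180 CPM in sham and 8982, 10671 and 2309 CPM in cut 1 to 3, in the same order as Mmp13. Only Matn1 was at 0 in some library.

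The 9-gene hypertrophic chondrocyte and osteoblast list summed to 119 to 409 CPM in sham and 1516, 2276 and 511 CPM in cut 1 to 3, nearly all of the cut values from Spp1 (osteopontin), the 1 gene called of 6 tested, a share near the 20.4% of all tested genes called higher. The hypertrophic marker Col10a1 did not pass the filter and was not tested. It stood at 0.0764 to 0.204 CPM in sham and 4.09, 18.6 and 0.201 CPM in cut 1 to 3. Its order of cut libraries was that of Mmp13, and its cut 3 value lay within the sham range. The osteoblast marker Ibsp, bone sialoprotein, was not called (log2 -0.85 ± 1.03, adjusted p = 0.533). The part of these cell types in the Mmp13 result was not tested.

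Of 7 genes for collagen uptake and collagen-cutting enzymes outside the MMP family, 3 were called higher (Ctsk, Mrc2 and Fap), 1 lower (Ddr1) and 3 not called, beside 20.4% and 12.3%. Ctsk stood at 47.9, 48.9 and 32.9 CPM in sham and 617, 750 and 378 CPM in cut (log2 3.75 ± 0.34, adjusted p = 0.00332). Fap, a fibroblast serine protease, had a log2 fold change of 2.85 ± 0.34 (adjusted p = 0.0044). With the muscle covariate the values were 3.06 for Ctsk and 1.96 for Fap, both called. Ddr1, a collagen receptor, had -0.57 ± 0.10 (adjusted p = 0.0116) and was not called without sham 2 (-0.61, adjusted p = 0.0523).

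The genes with the pattern nearest to Mmp13 were Tnn (tenascin-N), Col2a1 and Cthrc1, at distances of 0.807, 1.47 and 2.37, the Euclidean distance between mean-centred log2 CPM over the 6 libraries among 11294 protein-coding genes with a mean of at least 5 CPM. For Mmp2 they were Ppic (0.229), a prolyl isomerase, and the collagen genes Col3a1 (0.239) and Col5a2 (0.258). For Mmp9 they were Atp8b4 (0.583), Nebl (0.694) and Mtmr7 (0.702). These distances are descriptions of 6 libraries, which differ in depth and in muscle content.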

How the data were processed

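Total RNA was measured after depletion of ribosomal RNA, from a mirVana extraction and a stranded TruSeq library kit (Ribo-Zero Gold), per the labels' protocols. The submitters' processing notes name Trimmomatic, HISAT2 and the build GRCm38.p6. Versions, the counting program and its strand setting are not given in the sources used here. The deposited table holds whole read counts per gene, and the deposited FPKM table the same counts per length and library total: the implied gene length was whole to within 0.01 bases in 100% of the genes checked. Of 21878 genes, 4031 had no count.

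Groups and replicate numbers came from the labels. No 2 libraries were duplicates (chi-square of at least 13.4 per gene). The labels do not say that same-numbered libraries are pairs. Their deviations from the group means had correlations of 0.259, 0.13 and 0.409 for numbers 1 to 3. With 3 libraries per group these values cannot show a pairing. A fit with the replicate number as a block is given as an alternative where it changes a call. The main fit, fixed without the block, used edgeR 4.0.16 in R 4.3.3 (filterByExpr, TMM, quasi-likelihood test, Benjamini-Hochberg over 14561 genes, threshold 0.05; common biological coefficient of variation 0.296). SE is the absolute log2 fold change over the square root of F. The fit was tested on simulated data.

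The genes and lists were chosen with earlier results of these data known. Named genes were the 10 metalloproteinases, tested MMP family genes, the 5 inhibitors, of each other list the 2 smallest p (and the smallest in the other direction), and the 3 nearest genes of Mmp13, Mmp2 and Mmp9. Mmp10, other untested MMP genes, cell type markers and the other called list members were named outside this rule, after their values were seen. Motifs were searched in RefSeq windows, and positions come from RefSeq GRCm38.p6. Exon overlaps come from GENCODE M21.

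The alternatives tried were 2 other scalings in edgeR (upper quartile, and size factors from DESeq2 1.42.0), the DESeq2 Wald test, limma-voom (limma 3.58.1), no filter, a stricter filter (10 counts or more in each library of 1 group), limma on log2(FPKM + 1) or log2(FPKM + 0.1) with a mean FPKM of at least 0.1 or no filter, each library left out, the replicate block and the muscle covariate.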

Additional observations from a re-analysis of the deposited data

How the results depend on the processing

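Across 17 alternatives the 9 tested metalloproteinases kept their direction in all 153 values, and 12 of these, all for Mmp9 or Mmp16, lost the call. The number called higher was 9 in 8 alternatives and 7 to 9 with each library left out; 0 were called lower throughout. With each library left out, the counts of genes called ran from 1091 to 4212 higher and 436 to 4392 lower over all genes, 2 to 4 in the rest of the MMP family, 2 to 4 for inhibitors, 0 to 6 for activators, 3 to 9 for inducers, 3 to 9 for substrates and 3 to 6 for collagen uptake. Mmp17 changed sign without sham 3 (log2 -0.044, adjusted p = 0.914) and ran up to 0.39 without sham 1. With the muscle covariate 1540 genes were higher and 715 lower, and 3 activators were called. DESeq2 called 2739 genes lower and all 5 inhibitors. The replicate block changed the call of Mmp9 (1.59) and Reck (0.94) and of no other gene among the 31 run under every alternative, which leave out the nearest genes of Mmp13, Mmp2 and Mmp9 except Col2a1. Mmp9 was also not called by limma-voom (1.61, adjusted p = 0.058) or by limma on log2(FPKM + 1) with no filter (1.26, adjusted p = 0.067). The cause of these changes was not tested. A single count stood for 0.0319 to 0.0418 CPM, which limits Mmp8, Mmp10 and the other scarce MMP genes.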
